A study of Gallus gallus with 4 samples.

Results

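The comparison set 1 liver array of a feed efficiency study in broiler chickens against its own replicate: the array labelled group 2 replicate 1 against the array labelled group 2 replicate 2, which are 2 of the 4 arrays in the series. Its members are the probes that were not controls and were well above background on both group 2 arrays, 30637 of 43603 probes (70.3%), after 7 more without a usable value. Each array stood alone on its side, so every value below is a description of 2 arrays, and no test was made.

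The birds were coloured broilers aged 35 days. Each was kept in an individual cage with feed and water ad libitum through a trial of 35 days, on starter feed to week 4 and on finisher feed after it. Both group 2 arrays are labelled low for feed efficiency and low for residual feed intake, and both group 1 arrays are labelled high for both. Residual feed intake is the feed a bird eats beyond what its size and growth predict, and a high value usually goes with poor efficiency, so the words do not settle which group was the more efficient. Group 2 replicate 1 is labelled "Both Female", group 2 replicate 2 is labelled "1 Male and 1 Female", and both group 1 arrays are labelled "Both Female". RNA taken from 50 mg of liver was pooled within a group, and Cy3 dye was used on 200 ng of it. GEO's design entry speaks of 4 to 5 slaughtered birds and of a pool split in duplicate, while the sexes named differ between the group 2 arrays.

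The liver of a young broiler makes most of the body's fat, packs it with cholesterol into lipoproteins, and supplies the blood with albumin, fibrinogen and carrier proteins. Whole liver also holds blood, so its RNA includes that of nucleated red cells, of heterophils (the bird's counterpart of neutrophils) and of lymphocytes. Interferons, released when viral RNA is sensed, switch on a broad set of antiviral genes in hepatocytes and in immune cells alike.

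All 4 arrays came from 1 slide and 1 scan date, so effects of an array's place on the slide cannot be told apart from those of its RNA. The 75th percentile of intensity was 1170.03 and 1277.68 on the group 2 arrays, against 978.073 and 1449.57 on the group 1 arrays. Between 72.3% and 80.2% of probes were well above background on an array, no spot was saturated, and 8 to 25 spots per array were left out as outliers. Repeated spots of 1 probe on 1 array differed by a median SD of 0.080 to 0.094 on the log2 scale (50 probes with 5 spots each). On the autosomes 16 hepatocyte markers, albumin and the fibrinogens among them, were well above background on both group 2 arrays, and CPS1 was not. Their summed linear signals, in units of each array's 75th percentile, were 2162 and 1916 on the group 2 arrays, against 2363 and 1726 on the group 1 arrays.

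The sex chromosomes went against the labels. Female birds have a Z and a W chromosome, males have a Z pair, and the Z dosage is not fully equalised between them. HINTW, a W-linked gene expressed in females, had 8 probes, with a median log2 signal of -3.85 on the array labelled group 2 replicate 1 and 5.87 on group 2 replicate 2, against 6.16 and 5.98 on the group 1 arrays. Here and below, log2 signal is log2 of the processed intensity minus that of the array's 75th percentile. The array labelled "Both Female" in group 2 was thus the 1 array of 4 with little HINTW signal. Over the 7 HINTW probes kept, the difference (replicate 1 minus replicate 2, as everywhere below) had a median of -8.98 and ran from -9.78 to -1.22.

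Z-linked probes moved the other way. The median difference of 394 Z-linked probes was 0.48 in the group 2 pair, with 78.2% of probes above 0, against 0.06 over 409 probes in the group 1 pair. Of the Z-linked probes, 58 (14.7%) were at least 2-fold higher on group 2 replicate 1 and 15 (3.81%) at least 2-fold lower. Of the autosomal probes 4.72% were higher and 3.67% lower, so the lower Z share was near the autosomal one. In the group 1 pair 1 Z-linked probe (0.244%) was at least 2-fold higher, beside 0.919% of autosomal probes. Measured from the group 1 mean, the median over 187 Z-linked genes was 0.50 on group 2 replicate 1 and 0.08 on group 2 replicate 2. On the W chromosome 13 of 29 probes (44.8%) were at least 2-fold lower on replicate 1, beside 3.67% of autosomal probes. At least 2-fold higher was 1 (3.45%), beside 4.72%, and none of 34 was 2-fold apart in the group 1 pair. The filter left out W-linked probes that passed the background limit on replicate 2 alone. Those were all lower on replicate 1, with differences from -9.70 to -2.86. Each of the 29 autosomes with at least 50 probes had a median between -0.19 and 0.13. The sexes of the birds behind an array and all other differences between those birds cannot be told apart, so named Z-linked and W-linked probes are kept out of the autosomal counts that follow.

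**Figure D1:**
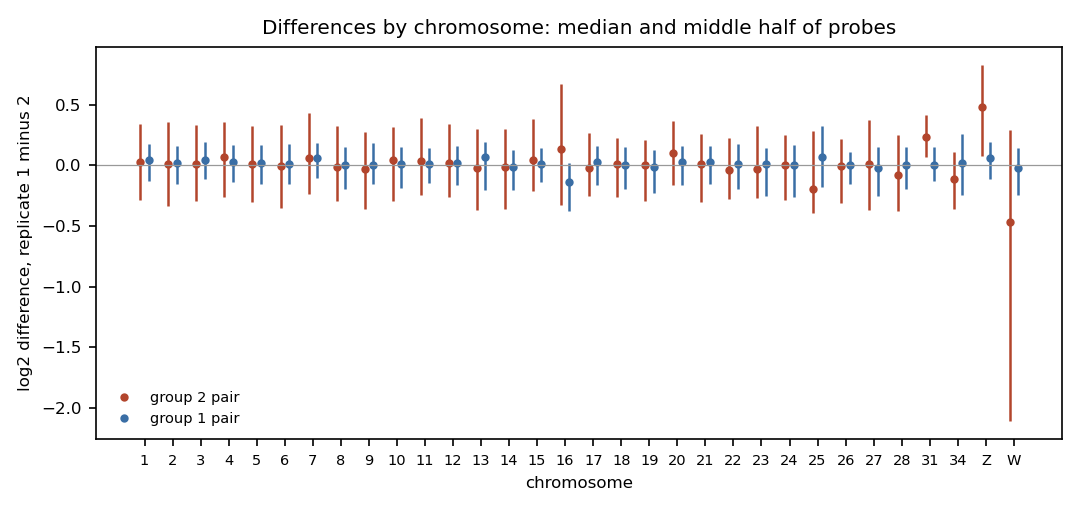
Median (point) and interquartile range (line) of the log2 differences, replicate 1 minus replicate 2, on each chromosome with at least 20 kept probes, for the group 2 pair and the group 1 pair. The group 2 median stands at 0.48 on Z and -0.47 on W, and the group 1 pair stays near 0 on both.

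Among Z-linked genes, the largest differences upward were in CDKN2B, an inhibitor of the cell cycle, and in GADD45G, a growth arrest and stress gene. CDKN2B had a log2 signal of 3.49 on group 2 replicate 1 and 1.59 on group 2 replicate 2, against 1.15 and 1.23 on the group 1 arrays. GADD45G had 3.08 on replicate 1 and 1.30 on replicate 2, against 1.32 and 1.48 in group 1. For both genes group 2 replicate 1 was the high array and the other 3 lay close together. The differences of ABCA1, a cholesterol exporter, of RGP1 and of IL6ST, the shared receptor subunit of the interleukin 6 family, were 1.77, 1.66 and 1.61. Against the general direction of Z stood DTWD2 (-2.80), IL7R, the interleukin 7 receptor (-2.08), ST8SIA3 (-1.71), MPDZ (-1.38) and GLRX, a glutaredoxin (-1.35). The second probes of DTWD2 and MPDZ were above 0, at 0.98 and 0.02. The growth hormone receptor GHR, also Z-linked, differed by -0.47.

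Across the autosomes the group 2 arrays were further apart than the group 1 arrays. The SD of the difference was 0.60 over 9413 probes in the group 2 pair, against 0.34 over 9906 probes in the group 1 pair. Of the group 2 probes, 444 (4.72%) were at least 2-fold higher on replicate 1 and 345 (3.67%) at least 2-fold lower, against 91 (0.919%) and 49 (0.495%) in the group 1 pair. Differences of at least 4-fold were seen for 89 probes in the group 2 pair and for 19 in the group 1 pair. Over the 9331 autosomal probes kept on all 4 arrays, Pearson's r was 0.978 between the group 2 arrays and 0.993 between the group 1 arrays. Between a group 2 and a group 1 array it was 0.947 to 0.960, so the group 2 arrays were still nearer each other than either was to group 1.

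**Figure D2:**
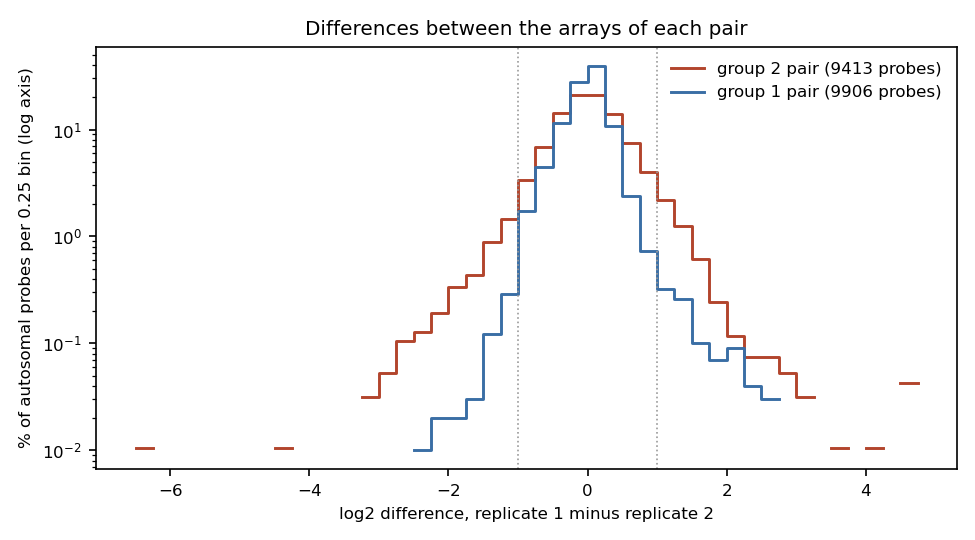
Share of autosomal probes (log axis) by log2 difference, replicate 1 minus replicate 2, in bins of 0.25, for the group 2 pair (9413 probes) and the group 1 pair (9906 probes), with dotted lines at 2-fold. The group 2 curve is the wider on both sides of 0.

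The excess did not lie in dim probes alone. Kept autosomal probes were cut into 5 classes of brightness. In the group 2 pair 15.3% of the dimmest class and 5.20% of the brightest were at least 2-fold apart, against 4.94% and 0.0505% in the group 1 pair. Where a gene had more than 1 kept probe, its 2 brightest probes correlated across 2820 genes at r = 0.67 in the group 2 pair and 0.25 in the group 1 pair. That is a correlation across genes on the same arrays, and genes are not independent replicates.

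**Figure D3:**
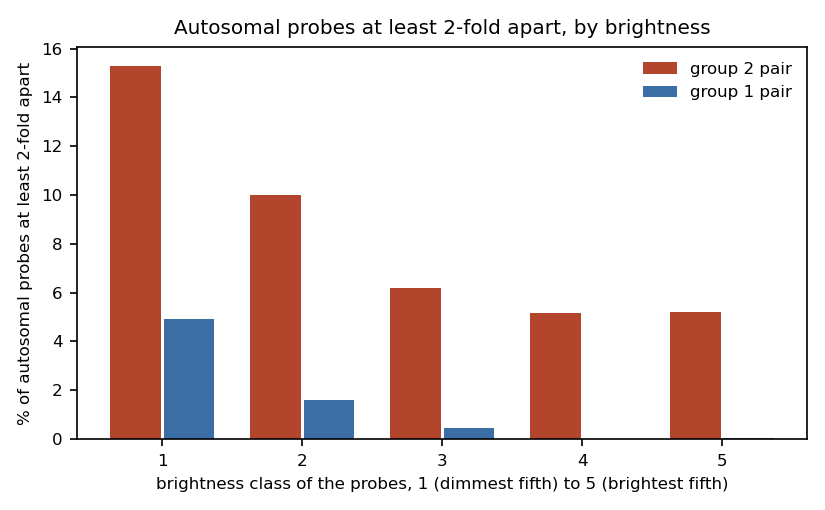
Percent of kept autosomal probes at least 2-fold apart in 5 classes of brightness from dimmest to brightest, for the group 2 pair and the group 1 pair. In the brightest class the group 2 bar stands at 5.20% and the group 1 bar at 0.0505%.

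Each gene was then represented by its brightest kept probe. Of 4462 autosomal genes in the group 2 pair, 155 (3.47%) were at least 2-fold higher on replicate 1 and 190 (4.26%) at least 2-fold lower. In the group 1 pair the counts were 60 (1.29%) and 17 (0.367%) of 4636. For the 155 higher genes both group 1 arrays lay between the group 2 arrays in 56, above both in 44 and below both in 24, and overlapped 1 array in 31. For the 190 lower genes the counts were 70, 64, 33 and 23. These genes were picked by their gap within group 2, which by itself leaves more room between the arrays. The positions were not counted over all 4462 autosomal genes, so nothing is read from these counts. Of the higher genes with more than 1 kept probe, 60 of 70 had all probes on 1 side of 0, and of the lower genes 76 of 91 did. Their brightest probe was picked for its gap, and this share was not counted over all 2820 genes with more than 1 kept probe. Nothing is read from it either. Among the higher genes, 13 were at least 2-fold higher on replicate 1 in the group 1 pair too, and among the lower genes none was lower there.

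Genes of the interferon response were the most marked group on the higher side. The list of interferon and antiviral genes had 17 measured members with a median difference of 0.68, of which 7 were at least 2-fold higher and 1 was at least 2-fold lower, beside 3.47% and 4.26% of all autosomal genes. Its median in the group 1 pair was -0.11, with none 2-fold apart. MX1, an antiviral GTPase induced by type I interferon, had a log2 signal of 4.53 on group 2 replicate 1 and -0.21 on group 2 replicate 2, against 1.15 and 1.19 on the group 1 arrays. Group 2 replicate 1 was the high array and group 2 replicate 2 lay below all others, a difference of 4.74 or 26.7-fold, and the other kept probe of MX1 gave 4.63.

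Receptors of viral RNA differed by unequal amounts. TLR3, the endosomal receptor for double-stranded RNA, had 2.05 on replicate 1 and 0.52 on replicate 2, against -0.74 and -0.63 in group 1. IFIH1 (MDA5), the cytosolic sensor of viral RNA, had 2.14 on replicate 1 and 0.72 on replicate 2, against 0.62 and 0.74 in group 1. For both genes group 2 replicate 1 was the highest of the 4 arrays. EIF2AK2 (PKR), a kinase that binds double-stranded RNA, differed by 0.31, and by 0.83 in the group 1 pair, and TLR7, a receptor for single-stranded RNA, by 0.06. MYD88, the adaptor of most other Toll-like receptors, was also higher on replicate 1, by 1.25.

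Among the effectors, IFI6 differed by 1.58, LY6E by 1.24 and ZC3HAV1, which targets viral RNA for decay, by 1.05. Measured from the group 1 mean, IFI6 was at 0.28 on replicate 1 and -1.30 on replicate 2. For IFI6 group 2 replicate 2 was thus the low array. LY6E had 7.75 on replicate 1 and 6.51 on replicate 2, against 5.85 and 6.42 in group 1. For LY6E, as for TLR3 and IFIH1, group 2 replicate 1 was the high array. ZC3HAV1 had 3.08 on replicate 1 and 2.04 on replicate 2, with group 1 in between at 2.36 and 2.34. GBP, an interferon-induced GTPase, went the other way, with 1.83 on replicate 1 and 3.15 on replicate 2, against 3.83 and 3.68 in group 1. Of the transcription factors, IRF7 differed by 0.68 and IRF9 by 0.52, and IRF1 by 0.13 and IRF8 by -0.26 were close to 0. SOCS1, a brake on the pathway, differed by -0.42.

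Genes of antigen presentation had a median of 0.54 over 11 members, 9 of them above 0 and none 2-fold apart, against -0.06 in the group 1 pair. BLB1, a class II beta chain, differed by 0.92, and the class I chains BF2 and BF1 by 0.73 and 0.69. Both MHC class I genes were lower on each group 2 array than on the group 1 arrays: BF2 had 4.39 on replicate 1 and 3.66 on replicate 2, against 6.26 and 6.34 in group 1. The light chain B2M differed by -0.26, with 4.84 on replicate 1 and 5.10 on replicate 2, against 2.53 and 2.75 in group 1. BF1 and BF2 are near-identical copies, and probes of such genes may share signal.

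Genes of cholesterol synthesis were lower on replicate 1. All 8 measured autosomal members of that list were below 0, with a median of -0.97, against 0.03 in the group 1 pair. At least 2-fold lower were 3 of the 8, beside 4.26% of all autosomal genes. Their summed signal was 121 on replicate 1 and 241 on replicate 2, against 165 and 159 on the group 1 arrays. Group 2 replicate 2 was thus the high array by sum, and replicate 1 the low one. Measured from the group 1 mean, the list median was -0.05 on replicate 1 and 0.87 on replicate 2. By median replicate 1 was thus close to group 1, and its low sum lay largely in FDFT1 and INSIG1.

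Along the pathway, FDFT1 (squalene synthase) had 4.02 on replicate 1 and 5.02 on replicate 2, against 5.63 and 5.59 in group 1. SQLE (squalene epoxidase) differed by -1.07 and LSS (lanosterol synthase) by -0.94. MSMO1, which removes methyl groups from sterol precursors, had 4.94 on replicate 1 and 6.16 on replicate 2, against 4.64 and 4.50 in group 1. DHCR7, which makes cholesterol from its last precursor, had 2.38 on replicate 1 and 3.68 on replicate 2, against 2.44 and 2.43 in group 1. For DHCR7 and MSMO1 group 2 replicate 2 was the array apart, with replicate 1 close to group 1, while for FDFT1 replicate 1 was the low array. INSIG1, a sensor that restrains the pathway, differed by -0.78 and HSD17B7 by -0.13. HMGCS1, which is Z-linked, differed by -0.10. SREBF2 had no probe matched by name. As the median of its probes, the difference of SQLE was -0.62.

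Fatty acid synthesis had a median of 0.27 over 15 measured members, against 0.02 in the group 1 pair, which is short of the 0.5 that counts as apart. Above 0 were 9 members, beside 45.3% of all autosomal genes, and 2 were at least 2-fold higher, beside 3.47%. THRSP (Spot 14), a nuclear protein that goes with high lipogenesis, had 7.28 on replicate 1 and 4.23 on replicate 2, against 6.71 and 6.52 in group 1. Group 2 replicate 2 was the low array for THRSP, at 3.05 below replicate 1. SCD, which puts the double bond into stearate, had 2.39 on replicate 1 and 0.94 on replicate 2, against -1.23 and -1.50 in group 1. FASN, the fatty acid synthase itself, differed by 0.61, ELOVL2 by 0.90, ACLY by 0.40 and ACACA by -0.31. G0S2, an inhibitor of lipolysis, had 3.70 on replicate 1 and 1.68 on replicate 2, against 3.24 and 3.48 in group 1. For G0S2, as for THRSP, replicate 2 lay below all other arrays.

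Genes that liver uses in fasting were lower on replicate 1 in several cases. PDK4, which shuts pyruvate out of the citric acid cycle, had 1.35 on replicate 1 and 3.72 on replicate 2, against -1.02 and -1.13 in group 1. IGFBP1, a binding protein of insulin-like growth factors that insulin represses, had -0.16 on replicate 1 and 2.22 on replicate 2, against -0.91 and -0.46 in group 1. Both genes were highest on group 2 replicate 2 and lowest on the group 1 arrays. PPARGC1A, a coactivator of oxidative and gluconeogenic genes, differed by -1.57, but was near background, and normexp background correction reduced it to -0.73. PCK2, the mitochondrial form of the gluconeogenic carboxykinase, differed by -1.53, and PCK1, the cytosolic form, by -0.90. The oxidation list as a whole had a median of -0.22 over 17 genes, against 0.03 in the group 1 pair. CPT1A, the gate of mitochondrial fatty acid import, differed by 0.65.

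Other liver functions held single genes far apart in both directions. CYP8B1, which sets the make-up of bile acids, differed by -1.07, and CYP7A1, the rate-limiting enzyme of their synthesis, by 0.39. CYP7A1 had 2.97 on replicate 1 and 2.58 on replicate 2, against -0.70 and -0.59 in group 1, so the pair was close beside its distance from group 1. In drug metabolism, CYP1A1, induced through the aryl hydrocarbon receptor, differed by -1.87 and AOX1 by -1.68, and the glutathione transferases GSTA3 and GSTA4 by 1.65 and 1.13. TXNRD1, a thioredoxin reductase, had 2.49 on replicate 1 and 0.47 on replicate 2, against 1.77 and 1.93 in group 1. OAT, which breaks down ornithine, had 3.49 on replicate 1 and 5.25 on replicate 2, against 3.17 and 3.20 in group 1. ASS1 (argininosuccinate synthase) differed by -1.26. DIO3, which inactivates thyroid hormone, differed by -1.73 (-1.05 as the median of its probes), SOCS2, a brake on growth hormone signalling, by 1.18 and IGF1 by 0.57. HNF4A, a master factor of hepatocytes, differed by 1.01, with -0.39 on replicate 1 and -1.40 on replicate 2, against -1.38 and -1.09 in group 1. The differences of HNF4A and ASS1 fell under 2-fold in at least 1 alternative processing.

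Hepatocyte markers themselves were close in the median of their brightest probes. Their median was 0.24 in the group 2 pair and 0.43 in the group 1 pair, with ALB (albumin) at 0.25 and APOB, the backbone of lipoproteins, at 0.17. The other kept probe of ALB gave 0.79, and the 7 kept probes of APOB ran from 0.16 to 1.41. Endothelial and stellate cell markers had a median of 0.09 over 29 genes, against 0.12 in the group 1 pair. HAND2 (-1.20), LYVE1 (-1.08) and VIM (-1.08) were at least 2-fold lower and THY1 (1.19) higher. Those are 3 lower and 1 higher of 29, beside 4.26% and 3.47% of all autosomal genes. The collagen gene COL1A2 differed by 0.20, with its 4 probes between -1.20 and 0.31. Intestinal markers had a median of -0.29 over 16 genes, against 0.21 in the group 1 pair. At least 2-fold higher were 3, such as DPP4 (1.49), and 5 lower, such as CALB1 (-1.28), beside 3.47% and 4.26% of all autosomal genes. In the group 1 pair 2 were at least 2-fold higher, MYO1A and SLC34A2 (both 1.24), which were among the 5 lower in group 2. SLC34A2 was not above background on both group 1 arrays. The 1 probe of the gut gene FABP2 was under the background limit. HAND2, LYVE1, VIM and THY1 fell under 2-fold in at least 1 alternative processing. Of the intestinal genes at least 2-fold apart, CALB1, MYO1A, SLC34A2, ACE, GUCA2B and SLC15A1 did so too, and DPP4 did not. ESR1, the oestrogen receptor, differed by 0.29. Ribosomal protein genes were below 0 in 43 of 44 cases, with a median of -0.33 and none 2-fold apart. In the group 1 pair 40 of the 44 were above 0, with a median of 0.29, so a shift of this size also occurred between the other 2 arrays.

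Red cell genes were lower on replicate 1 and had the largest median of the 34 lists. All 12 measured members were below 0, with a median of -1.48 and 8 at least 2-fold lower (4.26% of all autosomal genes were), against 0.12 and none 2-fold apart in the group 1 pair. The summed signal was 46.7 on replicate 1 and 159 on replicate 2, against 408 and 341 on the group 1 arrays. HBE1, RHAG, GFI1B and TFRC were under background on at least 1 group 2 array. In a bulk sample fewer cells of a type and less RNA per cell cannot be told apart.

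Of the globins, HBAD (alpha D) had 2.20 on replicate 1 and 4.52 on replicate 2, against 6.29 and 6.04 in group 1. HBBA (beta A), the adult beta chain, had 3.67 on replicate 1 and 5.69 on replicate 2, against 7.06 and 6.79 in group 1. Both group 2 arrays lay below group 1, replicate 1 by the most. HBE differed by -1.93, HBBR by -1.54 and HBA1 by -1.53. Globin genes are near-identical copies of each other in places, and probes may share signal. Away from the globins, CA2 (carbonic anhydrase) differed by -1.68, the linker histone H1F0 by -1.42 and SLC4A1, the anion exchanger of the red cell membrane, by -1.10. RHCE (-0.10), EPB41 (-0.19), TAL1 (-0.20) and HBZ (-0.20) were close to 0.

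Some markers of heterophils and macrophages were far apart, in both directions. Their list had a median of -0.17 over 23 genes, with 8 at least 2-fold lower and 2 at least 2-fold higher (4.26% and 3.47% of all autosomal genes), against 0.13 and none in the group 1 pair. The list was not divided by cell type beforehand, and the genes named from it were picked by their size. Its summed signal was 205 on replicate 1 and 181 on replicate 2, against 182 and 162 in group 1. CTSS, with a log2 signal of 6.20 on replicate 1 and 5.48 on replicate 2, differed in linear signal by more than the group 2 sums did. The direction of the summed gap thus rests on that gene. CD14 and NCF4 were among the list's genes under background on a group 2 array. CATH2, a cathelicidin stored in heterophil granules, had -2.62 on replicate 1 and -0.23 on replicate 2, against 0.92 and 0.73 in group 1. CATH1 differed by -2.19, the defensins AvBD1 and DEFB4A (listed as AvBD2) by -1.97 and -1.59, and LECT2, whose chicken form is the myeloid granule protein MIM-1, by -2.19. For these 5 genes replicate 1 was the lowest and group 1 the highest.

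EXFABP, a lipocalin that binds iron carriers of bacteria, was high on a different array, with 2.62 on replicate 1 and 5.34 on replicate 2, against 2.43 and 2.48 in group 1. MMP9 and CSF3R, the receptor of the granulocyte growth factor, differed by -1.04 and -1.33. On the higher side were LYZ (lysozyme, also held in heterophil granules) at 1.52, MARCO, a scavenger receptor of macrophages, at 1.15, and C1QC at 0.95. The pan-leukocyte gene PTPRC (CD45) differed by 0.23.

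**Figure D4:**
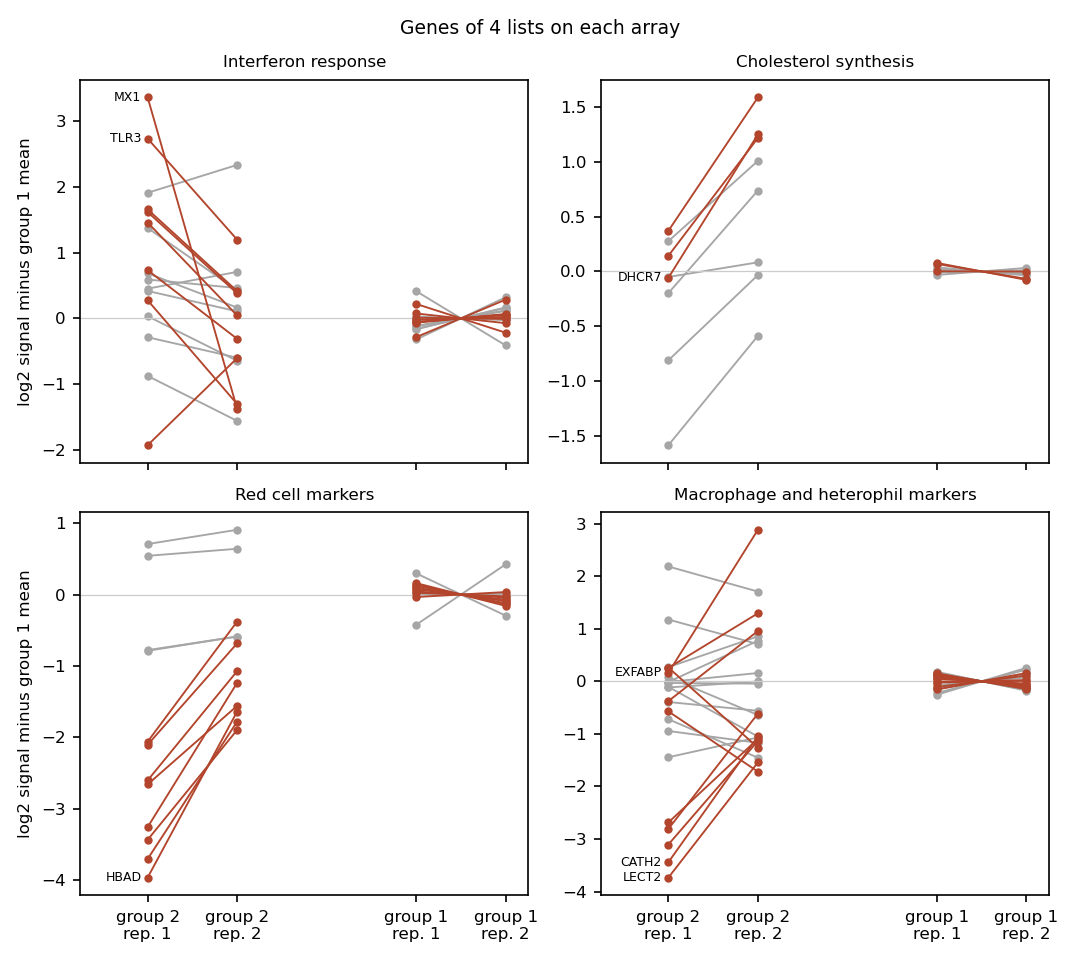
Log2 signal minus the group 1 mean for genes of 4 lists on group 2 replicate 1, group 2 replicate 2 and the group 1 arrays, where each line is 1 gene and red lines are at least 2-fold apart in the group 2 pair. The 8 red cell genes drawn in red and MX1 stand far apart in the group 2 pair and close together in group 1.

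The lymphocyte list had 20 measured genes, 7 of them above 0, with a median of -0.25, against 0.04 in the group 1 pair. At least 2-fold lower were 5 (4.26% of all autosomal genes), which are given here with other members picked from the same list. IGLL1, an immunoglobulin lambda-type chain, had 3.56 on replicate 1 and 6.13 on replicate 2, against 6.63 and 6.33 in group 1. Group 2 replicate 1 was the low array, and the 6 probes of IGLL1 gave -3.09 to -2.50. JCHAIN, which joins secreted immunoglobulins, differed by -1.70, POU2AF1, a B-cell coactivator, by -1.23 and CD79B, part of the B-cell receptor, by -1.30. CD3E and CD3D, of the T-cell receptor complex, differed by -0.23 and -0.32, and CD8A by 0.22. CTLA4, a T-cell brake, differed by -1.52, near background, and both CTLA4 and CD79B fell under 2-fold with normexp background correction. TNFRSF13B, a receptor of B-cell survival factors, was the highest, at 0.95. The list's summed signal was 52.8 on replicate 1 and 116 on replicate 2, against 169 and 150 in group 1. In linear signal most of the gap between the group 2 sums lay in IGLL1. Those sums thus do not describe the list as a whole. CD4, ICOS and CXCR4 were among the list's genes under background on a group 2 array. The part that blood cells in the tissue had in the other differences was not tested.

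The 35 cytokine, chemokine and NF-kappaB genes had a median of -0.21, against 0.04 in the group 1 pair, which is also short of 0.5. At least 2-fold lower were 7 of them and higher 1, beside 4.26% and 3.47% of all autosomal genes. NFKBIZ, a co-regulator of NF-kappaB targets, had 1.36 on replicate 1 and 2.97 on replicate 2, against 0.94 and 0.78 in group 1. NFKBIA, the inhibitor induced by NF-kappaB, had 3.43 on replicate 1 and 4.69 on replicate 2, against 2.15 and 2.01 in group 1. For both, group 2 replicate 2 was the highest array. The chemokines CCL4 and IL8L2 differed by -1.57 and -1.19, and IL1B by -1.47. CX3CL1 differed by -1.35, but by 1.00 in the group 1 pair, and it and IL1B fell under 2-fold with normexp background correction.

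The 16 immediate early genes had a median of -0.26, against 0.13 in the group 1 pair. EGR1 (-1.36) and CCN2 (-1.38) were at least 2-fold lower, and KLF6 (1.05) and the clock gene PER2 (1.01) at least 2-fold higher, on replicate 1. Those are 2 lower and 2 higher of 16, beside 4.26% and 3.47% of all autosomal genes. Of these, EGR1 and PER2 fell under 2-fold in at least 1 alternative processing.

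In all, 4 of the 34 gene lists had a median of at least 0.5 in size in the group 2 pair: red cells, cholesterol synthesis, interferon response and antigen presentation. In the group 1 pair none did, and its largest list median was 0.43. Medians of the other 30 lists in the group 2 pair ran from -0.49 (skeletal muscle) to 0.33 (bile acids). Lists held between 6 and 44 measured genes, and the members and lists were chosen with earlier results of these data known.

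**Figure D5:**
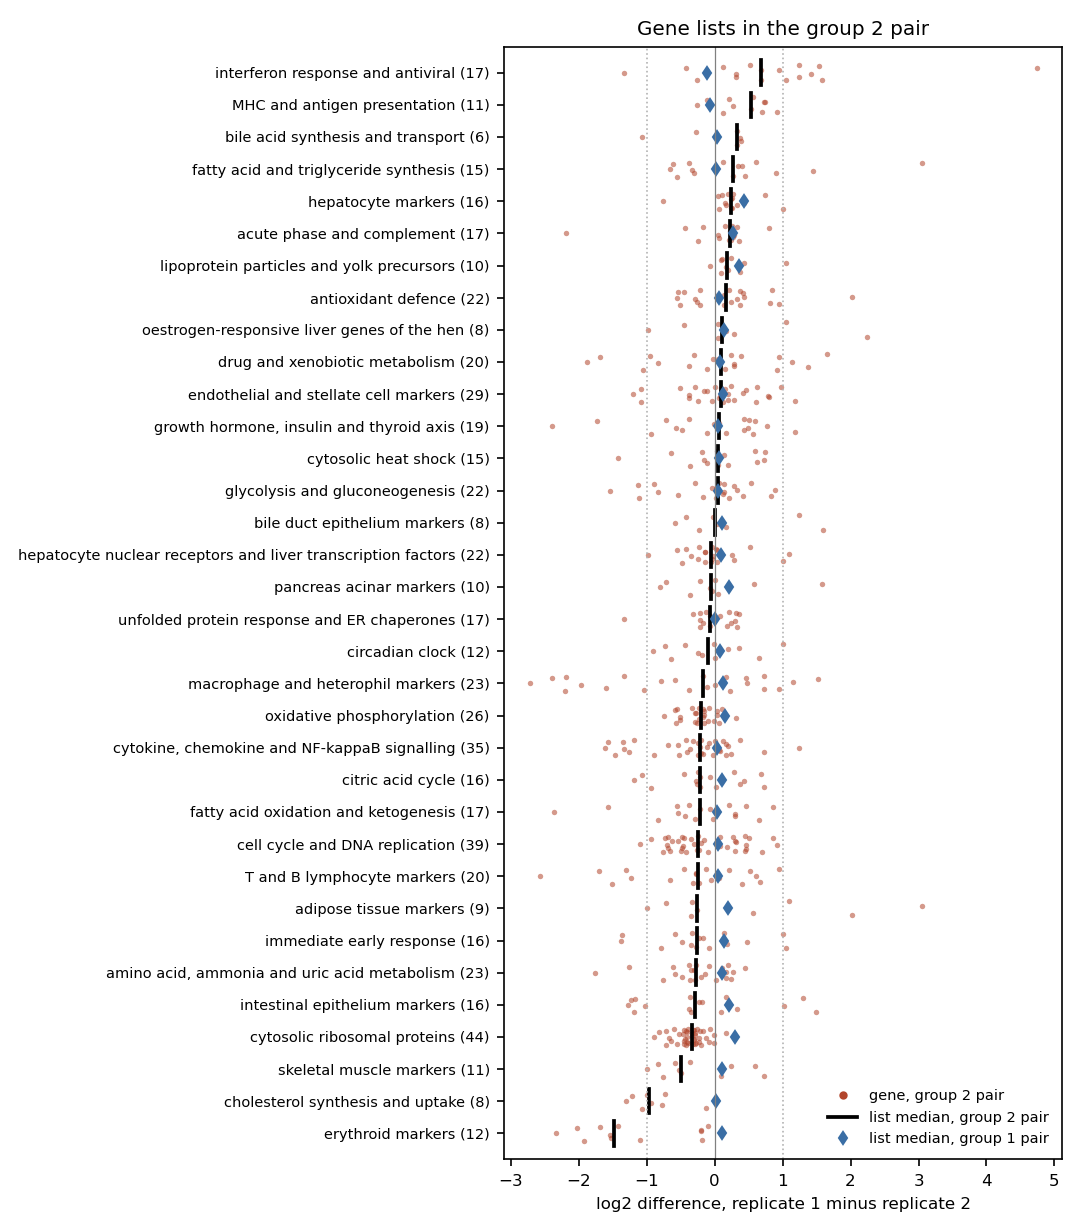
Log2 difference, replicate 1 minus replicate 2, of each measured autosomal gene of 34 lists in the group 2 pair (points), with the list median in the group 2 pair (bar) and the group 1 pair (diamond), the number of genes in brackets and dotted lines at 2-fold. Red cell and cholesterol lists stand lowest, at -1.48 and -0.97, and the interferon list highest, at 0.68.

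Outside the lists, the largest differences included genes with no single theme. WNT11, a secreted signal of tissue patterning, had -0.51 on replicate 1 and -5.19 on replicate 2, against 0.82 and 0.72 in group 1. MYH7, a myosin heavy chain of slow muscle, had -0.75 on replicate 1 and -5.30 on replicate 2, against -0.30 and -0.30 in group 1. For both, group 2 replicate 2 was close to background and the other 3 arrays were not, and each rests on 1 probe. CRHR2, a receptor of corticotropin-releasing hormone family peptides, had -0.77 on replicate 1 and -3.74 on replicate 2, against -3.31 and -2.96 in group 1, so here replicate 1 was the high array. MAOA, which oxidises amine transmitters, differed by 2.61, MCCC1, of leucine breakdown, by 2.75, SLBP, which binds histone mRNA, by 2.51, and UCHL1, a deubiquitinase, by 2.33. TM4SF1 (2.50), KRT40 (2.49) and EREG, a ligand of the EGF receptor (2.46), completed the 12 largest on the higher side by the naming rule. That rule leaves out genes whose kept probes differ in sign. With normexp background correction WNT11 fell to 3.24, MYH7 to 3.07 and CRHR2 to 2.34. MCCC1 fell to 1.83, KRT40 to 1.58, EREG to 1.54 and TM4SF1 to 1.30 with it.

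On the lower side MANSC1 was the largest by the naming rule, which leaves out symbols of open reading frames, with -1.16 on replicate 1 and 2.07 on replicate 2, against 1.36 and 1.31 in group 1. Group 2 replicate 1 was the low array for MANSC1, and its 2 probes gave -3.22 and -2.95. EHF, an epithelial transcription factor, had -5.03 on replicate 1 and -2.03 on replicate 2, against -3.50 and -3.65 in group 1, but its other probe gave -0.14. FGF1, a growth factor, differed by -2.75, RIPK2, a kinase of bacterial sensing, by -2.28, TRPV1, a heat-gated channel, by -2.24 and CNTF, a neurotrophic cytokine, by -2.24. With normexp background correction EHF fell to -1.78, FGF1 to -1.73 and TRPV1, which was near background on replicate 1, to -1.04. The open reading frame C12orf75, chosen after its value was seen, had the largest autosomal difference, -6.32. It had -5.29 on replicate 1 and 1.03 on replicate 2, against -4.09 and -4.09 in group 1, from 1 probe. Some genes were 2-fold apart in the group 1 pair as well, so their values carry little. PLA2G1B differed by 1.59 in group 2 and 1.74 in group 1, and SLURP1 by 2.25 in group 2 and 2.04 in group 1. The other kept probe of SLURP1 gave -0.64 in group 2.

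Further autosomal genes were well above background on 1 group 2 array alone and have only a bound. They entered through the array on which they passed the background limit. Among all probes, 2030 passed on group 2 replicate 1 alone and 862 on group 2 replicate 2 alone. In the group 1 pair 672 passed on replicate 1 alone and 1572 on replicate 2 alone, and no count by bound is given for that pair. On group 2 replicate 1 alone there were 112 such genes, of which 26 were at least 2-fold higher by their bound. The largest were SNTN at least 5.64-fold higher, CCDC80 at least 5.10-fold and LEPR, the leptin receptor, at least 4.59-fold. GFRA4 and FAM46C followed with at least 4.09-fold and 3.70-fold. FAM46C had -2.56 and -4.17 on the group 1 arrays, so it was over 2-fold higher on replicate 1 in that pair too. On group 2 replicate 2 alone there were 62, of which 27 were at least 2-fold lower on replicate 1. TNNT2, cardiac troponin T, was at least 9.59-fold lower on replicate 1, OVALY, an egg white protein gene, at least 6.73-fold, KCNAB1 at least 4.08-fold, TRIM27.1 at least 3.86-fold and IL3 at least 3.84-fold. TNNT2 was above background on only 1 group 1 array, OVALY likewise, and IL3 and GFRA4 on none.

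Probes with no gene name made up 20793 of the kept probes, and their SD was 0.73, against 0.42 in the group 1 pair. They have no chromosome here, so any Z-linked or W-linked probes among them could not be kept apart. They ran from -9.46 to 6.72. The lowest, A_87_P150703, had -4.92 on replicate 1 and 4.55 on replicate 2, against 5.27 and 5.11 in group 1. Like most HINTW probes, this probe was low on group 2 replicate 1 alone, and whether it is W-linked was not tested. The highest, A_87_P184913, had 3.38 on replicate 1 and -3.34 on replicate 2, against 1.56 and 1.41 in group 1.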

How the data were processed

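The scanner files hold 1-colour intensity values, background-subtracted by Agilent Feature Extraction 11.5.1.1, per the file headers. The authors also deposited a series table on a log2 scale. Its group 2 difference correlated with that of the scanner values at r = 1, with column medians of -0.094 and -0.022 for group 2 and 0.084 and 0.016 for group 1, so it served as an alternative.

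Processed intensities were put on the log2 scale and the 75th percentile over 43803 non-control spots was subtracted, with outlier spots left out and repeated spots averaged (Python 3.11.15, pandas 2.3.3). A further 7 probes had no value left. Of all probes, 11935 (27.4%) were named, for 5382 genes, through RefSeq accessions and a gene table of GRCg7b. The array was designed on galGal3, so no coordinates are given. A gene stands for its brightest kept probe. A difference of at least 2-fold (1 on the log2 scale) counts as apart, and a list median of at least 0.5 in size counts as apart. For a bound, the dim array's value was its own signal or that array's lowest signal well above background, whichever was higher.

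Members and the 34 lists were chosen with earlier results of these data known. The naming rule took the 12 largest differences in each direction among autosomal genes whose kept probes share a sign, over the 4365 of 4462 genes with a usable symbol (no LOC number, clone, accession or open reading frame), up to 4 list members at least 2-fold apart in each direction, a fixed set of liver genes, 5 bounds in each direction and 5 Z-linked genes in each direction. Some genes that the rule or the lists name are not reported here. Other list members and C12orf75 were added after their values were seen. Wrong synonym matches of 8 listed symbols were removed after values had been seen. limma 3.58.1 in R 4.3.3 gave the normexp alternative. The steps were tested on simulated data. Precision is limited by the number of arrays (1 a side). No statement here rests on a test.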

Additional observations from a re-analysis of the deposited data

How the results depend on the processing

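No paired analysis was possible because the 2 replicates are themselves the sides compared, and leaving out a replicate leaves no difference to give. Normexp on the mean signal was not run, since that column was not used here; normexp on the median signal took its place, chosen after seeing the data. With it, 239 autosomal probes were at least 2-fold higher on replicate 1 and 209 lower (444 and 345 in the values reported), and 91 genes higher and 112 lower (155 and 190). Without a filter on dim probes, the counts were 722 and 580 probes and 233 and 297 genes, and the W-linked median was -1.21. The gene SLC34A2, at -1.18 from its brightest probe, turned to 1.71 among probes above background on all 4 arrays and to 0.27 as the median of its probes. The cause of these moves was not tested. Of the 104 named genes, 37 moved with normexp by more than the SD of the group 1 pair (0.34). Of those at least 2-fold apart, 30 of 92 fell under 2-fold in at least 1 alternative, among them SQLE, HNF4A, IL1B, EGR1, CTLA4, CD79B, ASS1 and PPARGC1A. Over all alternatives run, the SD of the group 2 pair stayed between 0.49 and 0.70, the Z-linked median between 0.41 and 0.49, the red cell median between -1.48 and -1.27, the cholesterol median between -0.97 and -0.82, the interferon median between 0.62 and 0.84 and the antigen presentation median between 0.53 and 0.70. With 1 array a side, bird, pool, slide position and labelling cannot be told apart.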
